A study of Saccharomyces cerevisiae with 24 samples.

Results

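The mitochondrial genome of budding yeast was followed through a chromatin immunoprecipitation and sequencing (ChIP-seq) study of the nuclear transcription factor Yrr1. The members are the 18 regions of the deposited region tables that lie on the mitochondrial chromosome, of 1711 regions in all, together with every mitochondrial peak of the deposited peak lists. Each region is named by the mitochondrial gene it overlaps or lies nearest to. The cells were Saccharomyces cerevisiae strain S96 from which the chromosomal YRR1 gene had been deleted and which carried a Myc-tagged YRR1 allele. The allele was S96-I775E (the S96 allele with 1 amino acid change), that of strain YJM789, or that of S96. Cultures spent 2.5 h in the rich medium YPD, either alone or with the DNA-damaging drug 4NQO (4-nitroquinoline-N-oxide) at 0.25 µg/ml. The groups were therefore S96-I775E in 4NQO and in YPD, YJM789 in 4NQO and in YPD, and S96 in 4NQO and in YPD. Each group had 3 anti-Myc ChIP libraries and 1 input library, the input being total fragmented DNA before precipitation. All 3 ChIP libraries of a group were set against the same input, so every p-value below covers the spread of ChIP libraries and not that of inputs. Differences between groups in the input itself have no replicate check and cannot be told apart from differences between alleles or media. No untagged strain was analysed here, and the growth protocol speaks of duplicate cultures while the design text speaks of triplicates, so the spread may be partly technical. Read totals are not given in the tables; the genome-wide pileup level of the deposited peak calls lay between 34.9 and 45.8 reads per library.

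Yeast mitochondrial DNA is a small, very AT-rich, multicopy genome packed into nucleoids by the HMG-box protein Abf2 and not into nucleosomes. It is transcribed by the single-subunit RNA polymerase Rpo41 with its specificity factor Mtf1 from a short promoter motif. It encodes cytochrome c oxidase subunits (COX1, COX2, COX3), apocytochrome b (COB), subunits of the ATP synthase (ATP6, ATP8, OLI1), a ribosomal protein (VAR1), the ribosomal RNAs 15S_RRNA and 21S_RRNA, the RNA subunit of RNase P (RPM1) and tRNAs. Introns of COX1, COB and 21S_RRNA carry reading frames of their own: BI3 is a maturase needed to splice COB, and SCEI is the homing endonuclease of the 21S_RRNA intron. Yrr1 is a nuclear zinc cluster factor of drug resistance genes, whose recognition sequence has the core CGCGGA.

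The sequences below show what kind of DNA the members are; they are on the plus strand of build R64 (sacCer3), read from RefSeq. Capitals mark CGG or CCG, the zinc cluster half-site read on either strand, in the mitochondrial stretches. OLI1 is shown because it was lower in 4NQO where most regions were higher, with 1 half-site in its coding sequence at chrMito:46723-46953. The last COB exon and COX2 are shown as 200 bases at chrMito:43323-43522 and chrMito:73950-74149. Each surrounds the median position, over libraries, of the point in its region where input exceeded ChIP most. Neither stretch holds a half-site, although the regions around them hold 10 (last COB exon) and 12 (COX2). At COX2 that point ranged from 73919 to 75327, so the stretch does not hold it in every library. The COB region with BI3, where the mean excess was larger, is not shown. For contrast, the nuclear site inside IRT1 at chrX:607322-607387 carries the Yrr1 core, in capitals, with its first base at 607352, the median position of the strongest ChIP signal there.
OLI1: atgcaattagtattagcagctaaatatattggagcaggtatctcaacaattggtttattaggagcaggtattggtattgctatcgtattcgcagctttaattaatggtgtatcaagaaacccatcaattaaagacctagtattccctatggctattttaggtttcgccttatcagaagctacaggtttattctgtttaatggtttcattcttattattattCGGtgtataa
COB last exon: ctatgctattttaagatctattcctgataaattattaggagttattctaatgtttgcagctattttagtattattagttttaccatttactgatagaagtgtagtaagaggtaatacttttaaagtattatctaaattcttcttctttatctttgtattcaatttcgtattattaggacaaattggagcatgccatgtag
COX2: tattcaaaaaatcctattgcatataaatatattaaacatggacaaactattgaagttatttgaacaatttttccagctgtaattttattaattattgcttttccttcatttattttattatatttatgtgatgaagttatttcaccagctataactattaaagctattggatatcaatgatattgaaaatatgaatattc
IRT1: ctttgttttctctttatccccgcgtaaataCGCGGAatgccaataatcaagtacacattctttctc

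No mitochondrial peak was listed where ChIP exceeded input. The mitochondrial chromosome held 0 of 4972 MACS2 ChIP peaks over both deposited parameter sets and 0 of 1041 CisGenome peaks. In the MACS2 lists of the reverse test, where input exceeded ChIP, it held 1474 of 6217 peaks (23.7%), with some in 18 of 18 libraries. The nuclear sites SNQ2 (the promoter of a drug efflux pump gene) and IRT1 (a noncoding RNA gene upstream of the meiosis regulator IME1) had a ChIP peak in 18 of 18 libraries, at folds of 2.47 to 3.91 and 2.22 to 5.90. SNG1, a drug resistance gene, had a ChIP peak in 16 of 18 libraries. The mitochondrial members were thus listed for a deficit of ChIP signal relative to input and not for a peak of Yrr1 signal.

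The 18 regions cover 34532 bp, 40.3% of the 85779 bp mitochondrial genome, and follow the genes. They touched 17 of 19 protein-coding genes, the exceptions being ATP8 and VAR1, and 2 of 2 ribosomal RNA genes. They touched 0 of 24 tRNA genes, and RPM1 was also free of them. COX1 lies under 3 regions: exons 1 to 6 with the intron frames AI1 to AI5_ALPHA (chrMito:13645-23903), the intron frame AI5_BETA (chrMito:24060-25838) and the last exon (chrMito:25990-26893). COB lies under 2, namely exons 1 to 5 with BI2, BI3 and BI4 (chrMito:36411-42791) and the last exon (chrMito:43073-43793). 21S_RRNA also lies under 2, its 5′ part (chrMito:57948-60228) and the stretch with the SCEI intron (chrMito:60334-62351). COX2 shares its region with Q0255, a maturase-like reading frame that overlaps it (chrMito:73567-76101). ATP6 (chrMito:28278-29526), COX3 (chrMito:79097-80148), OLI1 (chrMito:46606-47089) and 15S_RRNA (chrMito:6501-7923) have 1 each. The other 6 are intergenic, near tW(UCA)Q, ATP6, COB, OLI1 and VAR1, the last with 2.

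Base by base, the reverse peaks of the mn parameter set lay mostly in genes. In 18 of 18 libraries they covered 65.0% of the intron reading frames, 56.7% of protein-coding exon sequence, 20.3% of ribosomal RNA exon sequence and 0.0327% of intergenic sequence. They covered no tRNA base in any library, and 5.13% of intergenic sequence in at least 1 library. COX2 was covered over 92.6% to 100% of its length, AI2 (an intron-encoded reverse transcriptase and maturase) over 93.9% to 100%, and COX3 over 80.1% to 100%. BI3 ranged more widely, between 41.8% and 99.6%, and OLI1 was covered in 6 libraries only, all of them S96-I775E. The GC share of the DNA covered in 18 libraries was 25%, that of DNA covered in 1 to 17 libraries 19.1% and that of DNA never covered 14.4%. The tRNA genes, at 31.9% GC, were never covered. The part of GC share in coverage was not tested.

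The length under such peaks differed between alleles and media by more than the spread of the libraries. It was 29462 ± 249 bp in S96-I775E cells in 4NQO and 28611 ± 8.08 bp in YPD (SD, n = 3 libraries here and below). It was 26275 ± 517 bp in YJM789 cells in 4NQO and 22106 ± 524 bp in YPD, and 22319 ± 738 bp in S96 cells in 4NQO and 17643 ± 1822 bp in YPD. Within alleles, 4NQO libraries had 3232 bp more than YPD libraries (exact permutation test within alleles, two-sided, p = 0.00025, the smallest it can give; adjusted p = 0.0015 over 12 tests, with the difference positive in 3 of 3 alleles). Within media, S96-I775E exceeded S96 by 9055 bp, YJM789 exceeded S96 by 4209 bp and S96-I775E exceeded YJM789 by 4846 bp. Each of those 3 differences was positive in both media, with exact p = 0.005, the smallest possible, and adjusted p = 0.006. The highest mitochondrial fold of a library lay between 6.30 and 8.43 in S96-I775E cells, between 5.34 and 8.39 in YJM789 cells and between 4.58 and 5.92 in S96 cells.

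**Figure D1:**
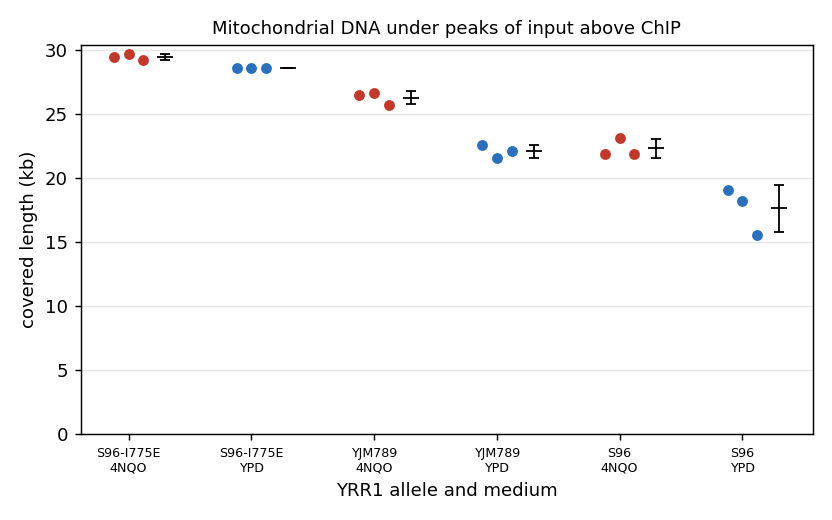
Length of mitochondrial DNA, in kilobases, under MACS2 peaks of input above ChIP, by YRR1 allele and medium; each point is a ChIP library (red 4NQO, blue YPD), with the mean and SD of the 3 libraries in black. S96-I775E libraries lie highest and S96 libraries in YPD lowest.

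The depth of the deficit was read from the deposited negative region table as the input excess, input minus ChIP coverage in reads at the point of a region where that difference was highest. It was above 0 in 323 of 323 mitochondrial entries with a value. In 261 of them it passed the 99th percentile of the nuclear regions of the same library, a level of 77.8 to 107 reads. Both counts are partly set by the choice of regions. The mitochondrial regions had listed peaks only of input above ChIP, while the nuclear regions include sites with ChIP peaks, such as SNQ2. Averaged over all libraries, the order ran from COB with BI3 (353.9 reads), COX1 exons 1 to 6 (351.2), COX2 (328.8), 21S_RRNA with SCEI (317.9) and ATP6 (313.6) to the intergenic region near tW(UCA)Q (59.8). Between them came the COX1 last exon (290.1), AI5_BETA (280.6), COX3 (265.6), the COB last exon (260.8) and the 5′ part of 21S_RRNA (222.6). The other regions were lower: the intergenic region near ATP6 (157.3), that near COB (143.7), 15S_RRNA (123.7), OLI1 (104.8), those near VAR1 at 51010 (99.7), near OLI1 (98.1) and near VAR1 at 53524 (77.8). Over all 18 libraries the ranges of all neighbours in this order overlapped, but those ranges pool 6 groups. Within groups, COX2 and the SCEI stretch overlapped in 6 of 6. The libraries of the 5′ part of 21S_RRNA lay above those of the region near ATP6 in 5 of 6 groups. Those of the region near OLI1 did not overlap those near VAR1 at 53524 in any of the 6. They lay above in 5 groups and below in 1, S96-I775E in 4NQO. The order also changed with the group. COX3 was the highest region in S96 cells in YPD (269.1 reads), and AI5_BETA held place 2 in S96-I775E cells in 4NQO (485.4 reads) and place 10 in S96 cells in YPD (109.5 reads). In the pooled order the upper 10 places were held by coding sequence or 21S_RRNA, and the lower ones by intergenic DNA, 15S_RRNA and OLI1. Across the 18 regions the mean excess was higher in longer regions (Spearman rho = 0.862) and had little relation to GC share (rho = 0.0898). These are descriptions: the regions share libraries, and the highest point is sought over a longer stretch in a longer region.

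**Figure D2:**
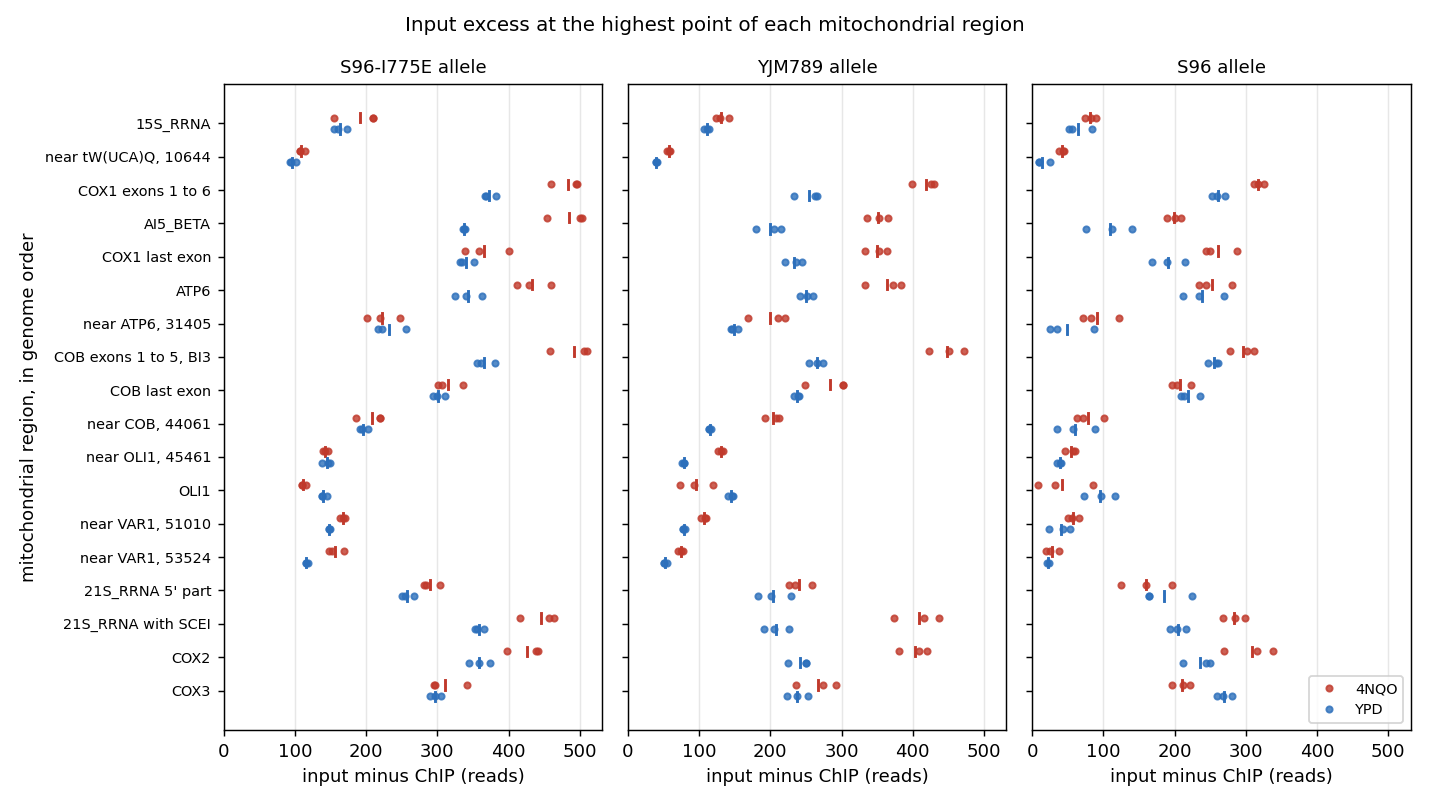
Input excess (input minus ChIP coverage in reads, at the highest point) of the 18 mitochondrial regions in genome order, 1 panel per YRR1 allele; points are ChIP libraries and vertical ticks their means, 4NQO in red above YPD in blue. Most regions lie further right in 4NQO, and OLI1 lies further left in all 3 panels.

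COX1 encodes the catalytic subunit of cytochrome c oxidase. COX1 exons 1 to 6 had an input excess of 497, 494 and 460.1 reads in 4NQO, against 368, 382 and 367 reads in YPD, with the S96-I775E allele. With the YJM789 allele the values were 430.0, 426 and 398 reads in 4NQO, against 265, 234 and 262 reads in YPD. The S96 allele gave 317, 325 and 311 reads in 4NQO, against 271, 259 and 253 reads in YPD. In each allele the 4NQO libraries all lay above the YPD libraries, and S96-I775E libraries lay above those of both other alleles in the same medium. AI5_BETA is the reading frame of a COX1 group I intron. In S96-I775E cells, AI5_BETA had an input excess of 499.8, 503 and 453 reads in 4NQO, against 337, 336 and 339 reads in YPD. In YJM789 cells it had 353, 366 and 336 reads in 4NQO, against 215, 179.5 and 205 reads in YPD. In S96 cells it had 189.7, 209 and 201 reads in 4NQO, against 140.4, 113 and 75.5 reads in YPD. Here too no 4NQO library overlapped a YPD library of its allele, and the S96 libraries were the lowest in both media. The last COX1 exon lies downstream of all COX1 introns. The last COX1 exon had an input excess of 358, 401 and 339 reads in 4NQO, against 335, 332 and 352 reads in YPD, in S96-I775E cells. YJM789 cells had 364, 353 and 333 reads in 4NQO, against 244, 221 and 236 reads in YPD. S96 cells had 249.7, 288 and 245 reads in 4NQO, against 215, 189 and 168 reads in YPD. The media overlapped in S96-I775E cells and not in the other alleles.

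COB encodes apocytochrome b of respiratory complex III. In S96-I775E cells, the COB region with BI3 had an input excess of 507, 511 and 459 reads in 4NQO, against 381, 361 and 356 reads in YPD. In YJM789 cells it had 451, 472 and 422 reads in 4NQO, against 274, 254 and 266 reads in YPD. In S96 cells it had 278, 311 and 302 reads in 4NQO, against 261, 258 and 247 reads in YPD. No 4NQO library overlapped a YPD library within an allele, and in YPD the YJM789 and S96 libraries overlapped. The last COB exon had an input excess of 307, 336 and 301 reads in 4NQO, against 299, 311 and 294 reads in YPD, in S96-I775E cells. YJM789 cells had 303, 302 and 248 reads in 4NQO, against 239.9, 233 and 238 reads in YPD. S96 cells had 204, 224 and 197 reads in 4NQO, against 236, 208 and 214 reads in YPD. The media overlapped in S96-I775E and S96 cells and not in YJM789 cells. S96-I775E libraries at the intergenic region downstream of COB held an input excess of 219, 219.6 and 185 reads in 4NQO, against 192, 194 and 202 reads in YPD. YJM789 libraries held 208, 212 and 193 reads in 4NQO, against 114, 117 and 114 reads in YPD. S96 libraries held 72.1, 101 and 62.9 reads in 4NQO, against 87.8, 56.9 and 35.5 reads in YPD. In this region S96 libraries lay below all libraries of both other alleles.

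COX2 encodes the subunit of cytochrome c oxidase that receives electrons from cytochrome c. S96-I775E libraries at COX2 held an input excess of 439, 441 and 397 reads in 4NQO, against 345, 374 and 358 reads in YPD. YJM789 libraries held 419.9, 409 and 381 reads in 4NQO, against 249.9, 224 and 249.9 reads in YPD. S96 libraries held 270.1, 339 and 316 reads in 4NQO, against 250.3, 245 and 212 reads in YPD. All 4NQO libraries lay above the YPD libraries of their allele. 21S_RRNA is the RNA of the large mitochondrial ribosomal subunit. In S96-I775E cells, the SCEI stretch of 21S_RRNA had an input excess of 456, 464 and 416 reads in 4NQO, against 353, 365 and 356 reads in YPD. In YJM789 cells it had 436, 416 and 374 reads in 4NQO, against 226, 191 and 205 reads in YPD. In S96 cells it had 267, 299 and 285 reads in 4NQO, against 216, 204 and 194 reads in YPD. Again no medium overlapped within an allele, and in YPD the YJM789 and S96 libraries were intermixed. The 5′ part of 21S_RRNA had an input excess of 284, 304 and 281 reads in 4NQO, against 251, 254 and 268 reads in YPD, in S96-I775E cells. YJM789 cells had 258, 235 and 227 reads in 4NQO, against 229, 182 and 200.3 reads in YPD. S96 cells had 125, 196 and 159.8 reads in 4NQO, against 225, 165 and 164 reads in YPD. Here the media overlapped in YJM789 and S96 cells, and in S96 cells the 4NQO mean was the lower.

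The medium comparison asked whether the drug was accompanied by a change at these regions. Averaged over the 17 regions with a value in all libraries, the input excess was 305.8 ± 17.9 reads in S96-I775E cells in 4NQO and 261.8 ± 1.75 in YPD. It was 262.4 ± 16.4 reads in YJM789 cells in 4NQO and 179.1 ± 8.38 in YPD, and 173.4 ± 16.0 reads in S96 cells in 4NQO and 148.8 ± 17 in YPD. Within alleles 4NQO exceeded YPD by 50.6 reads (exact permutation test within alleles, two-sided, p = 0.00075, adjusted p = 0.003 over 12 tests), in 3 of 3 alleles. Region by region, limma over all 1376 testable regions called 9 of 18 mitochondrial regions higher in 4NQO in S96-I775E cells (adjusted p below 0.05), where 5.01% of all regions were called higher. In YJM789 cells 15 of 18 were higher, against 11.1% of all regions, and in S96 cells 9 of 18, against 10.5%. Called lower in 4NQO was 1 of 18 in YJM789 cells (42.2% of all regions) and 2 of 18 in S96 cells (52.5% of all). In S96-I775E cells 0 of 18 passed limma's threshold as lower (4.43% of all regions), and 1 of 18 did at an unadjusted p of 0.05. With library medians set equal, 9 of 18 were higher and 0 lower in S96-I775E, 17 and 1 in YJM789 and 13 and 2 in S96 cells. That scaling turned the split over all regions in S96 cells, 145 higher and 722 lower, into 417 and 332. In YJM789 cells it turned 153 and 581 into 286 and 321. For S96-I775E cells the scaled split is not given, so the 9 and 0 have no background here. The median difference over the 18 regions was 27.1 reads in S96-I775E, 52.0 in YJM789 and 18.1 in S96 cells. With each library's nuclear median subtracted the difference was 60.4 reads (exact p = 0.00025, the smallest possible). The median nuclear region was lower in 4NQO in YJM789 and S96 cells: its input excess was 15.7 ± 0.144 reads in 4NQO and 16.3 ± 1.39 in YPD in S96-I775E cells, 17.2 ± 0.2 in 4NQO and 27.4 ± 3.33 in YPD in YJM789 cells, and 20.2 ± 2.23 in 4NQO and 38.7 ± 2.72 in YPD in S96 cells.

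COX1 exons 1 to 6 were higher in 4NQO by 111.5 ± 21.4 reads in S96-I775E cells (difference ± standard error, limma with Benjamini-Hochberg adjustment, adjusted p = 0.000396). The same difference was 164.3 ± 21.4 reads in YJM789 cells (limma, adjusted p = 4.1e-08) and 56.4 ± 21.4 reads in S96 cells (limma, adjusted p = 0.0201). For COB with BI3 it was 126 ± 22.4 reads in S96-I775E and 183.4 ± 22.4 in YJM789 cells, both past the threshold, and 41.5 ± 22.4 in S96 cells, where limma's adjusted p was 0.101 (0.0272 with library medians set equal, 0.0346 with only the compared groups fitted). COX2 was higher by 66.8 ± 19.8 reads in S96-I775E, 161.9 ± 19.8 in YJM789 and 72.8 ± 19.8 in S96 cells, all past the threshold. The SCEI stretch of 21S_RRNA was higher by 87.6 ± 18.1, 201.6 ± 18.1 and 79.6 ± 18.1 reads in S96-I775E, YJM789 and S96 cells, all past the threshold. The COX1 call in S96 cells was lost without YPD replicate 2 or 3 or without 4NQO replicate 2 (limma adjusted p of 0.0564, 0.0525 and 0.0582). The COX2 call in S96-I775E cells was lost without YPD replicate 1 or 3 or without 4NQO replicate 1 or 2 (limma adjusted p of 0.118, 0.0851, 0.114 and 0.107). The 5′ part of 21S_RRNA passed in YJM789 cells (35.9 ± 13.2 reads) and not in S96-I775E (31.9 ± 13.2) or S96 cells (-24.6 ± 13.2). COX3 was called higher in no allele.

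OLI1, which encodes the c-ring subunit of the ATP synthase, was lower in 4NQO where most regions were higher. OLI1 had an input excess of 109.6, 116 and 110.2 reads in 4NQO, against 144, 138 and 137 reads in YPD, in S96-I775E cells. YJM789 cells had 119.5, 93.4 and 73.6 reads in 4NQO, against 147, 141 and 146 reads in YPD. S96 cells had 32.7, 85.3 and 8.9 reads in 4NQO, against 116, 96.3 and 72.5 reads in YPD. The 4NQO libraries lay below the YPD libraries in S96-I775E and YJM789 cells and overlapped them in S96 cells. It fell by 48.9 reads in YJM789 cells (standard error 10.2, limma adjusted p = 0.000104) and by 52.7 reads in S96 cells (standard error 10.2, limma adjusted p = 2.3e-05). Limma draws that standard error from all groups and regions. At OLI1 the SD was 39.1 reads in 4NQO and 21.8 in YPD in S96 cells, against 3.25 and 3.98 in S96-I775E cells. The S96 p-value therefore does not measure the spread of the S96 libraries alone. In S96-I775E cells the difference was -27.9 ± 10.2 reads and did not pass (limma adjusted p = 0.07; 0.0374 with a replicate block and 0.000676 with only the compared groups fitted). The MACS2 fold of input over ChIP at OLI1 pointed the other way in S96-I775E cells, the only ones with a reverse peak there, at 3.74 in 4NQO and 3.31 in YPD. That pair of folds rests on 1 input library each, because the ChIP level that MACS2 used was its floor, the genome-wide level, in 6 of 6 libraries, and the 3 folds of a group were therefore equal. ChIP coverage there was at or below that level, so these folds are lower bounds and their direction was not tested. COX3, an oxidase subunit gene, also fell in S96 cells, by 58.5 reads (limma adjusted p = 0.000246). Its values in S96 cells were 197, 222 and 212 reads in 4NQO, against 268, 259 and 280.3 reads in YPD.

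**Figure D3:**
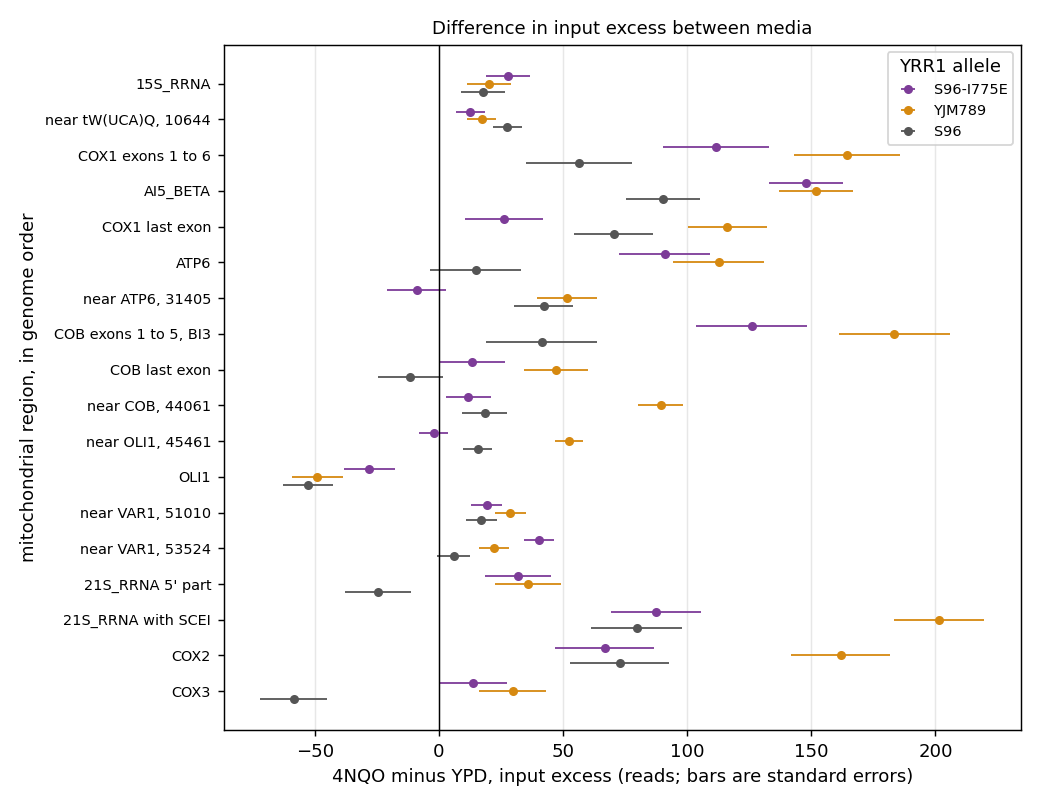
Difference in input excess, 4NQO minus YPD, in reads, for each mitochondrial region in genome order; colours are the YRR1 alleles and bars are limma's standard errors. OLI1 is below 0 in all 3 alleles, COX3 in S96 cells, and the long gene regions lie furthest above 0 in YJM789 cells.

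The allele comparison set S96-I775E and YJM789 against S96. Over the 17 regions the input excess was higher within media by 122.7 reads in S96-I775E than in S96 cells, by 59.7 reads in YJM789 than in S96 cells and by 63.0 reads in S96-I775E than in YJM789 cells. All 3 had exact p = 0.005, the smallest that permutation within 2 media can give, and adjusted p = 0.005. By region, S96-I775E exceeded S96 at 18 of 18 regions in 4NQO (6.32% of all regions were called higher) and at 17 of 18 in YPD (10.5% of all), COX3 being the exception. YJM789 exceeded S96 at 18 of 18 regions in 4NQO (11.3% of all) and at 10 of 18 in YPD (9.08% of all). In YPD the 8 that did not pass included COX1 exons 1 to 6 (-7.47 ± 21.4 reads), COB with BI3 (9.83 ± 22.4), COX2 (5.80 ± 19.8) and the SCEI stretch (3 ± 18.1). COX3 had -31.2 ± 13.5 reads (limma adjusted p = 0.0552). The 10 that passed included OLI1 (49.5 ± 10.2 reads) and the region near OLI1 (39.4 ± 5.79). S96-I775E exceeded YJM789 at 9 of 18 regions in 4NQO (6.18% of all) and at 17 of 18 in YPD (4.29% of all), OLI1 being the exception. In none of these 6 comparisons did limma call a mitochondrial region lower. The shares of all regions called lower were 16.4% in 4NQO and 61.4% in YPD for S96-I775E against S96, 20.5% and 36.8% for YJM789 against S96, and 8.65% and 36.6% for S96-I775E against YJM789. With library medians set equal the counts of 18 were the same except for S96-I775E against S96 in YPD, with 18. The splits over all regions moved toward higher. For S96-I775E against S96 in YPD the split was 395 higher and 330 lower, where it had been 145 and 845. The shares given above are those of the unscaled fit and are not the background of the scaled counts. At an unadjusted p of 0.05 there was 1 lower region in all 6 comparisons, COX3 in YJM789 against S96 in YPD. Not all 18 regions had a reverse peak of the mn set in every allele. Those at OLI1, near OLI1 and near VAR1 had one in S96-I775E cells only, and that near tW(UCA)Q in those cells in 4NQO only. The region near COB had none in S96 cells. Such regions may be members through those groups, so their part in these counts and means is no support for an allele difference.

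The change with 4NQO differed between alleles. The difference of differences, tested as an interaction term in the same limma fit, was higher in YJM789 than in S96 cells at 11 of 18 regions, where 15% of all regions were called higher. COB with BI3 had the largest, 141.8 ± 31.6 reads (limma adjusted p = 0.00111), and the SCEI stretch followed with 121.9 ± 25.6, COX1 exons 1 to 6 with 107.9 ± 30.3, ATP6 with 97.8 ± 25.8, COX2 with 89.0 ± 28.0 and COX3 with 88.2 ± 19.1 reads, all past the threshold. None of 18 was lower by limma, at the adjusted threshold (6.25% of all regions) or at an unadjusted p of 0.05. For S96-I775E against S96, 6 of 18 were higher, against 40.9% of all regions, and 1 of 18 was lower, against 6.4% of all. The count of 6 is a share below that over all regions. It depended on scaling: with library medians set equal 1 of 18 was higher and 4 were lower. Without S96 YPD replicate 1 it was 2 higher and 2 lower, and without S96 YPD replicate 2 it was 3 higher and 0 lower. The YJM789 interaction had 8 higher and 0 lower with library medians set equal. The shares of all regions given above belong to the unscaled fits. OLI1 passed in neither interaction, at 3.73 ± 14.4 reads for YJM789 and 24.7 ± 14.4 for S96-I775E.

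The excess is a difference and grows when input and ChIP both grow, so the parts were read separately from the reverse MACS2 peaks. Pileup and fold of a peak give the ChIP level it was set against, and both were divided by the lowest such level of the library, its genome-wide level. That level is a floor: a ChIP level of 1 means coverage at or below it, and the fold is then a lower bound. The width over which the ChIP level was taken is not given, so a level above 1 may not be that of the peak itself. Of the 10 regions with a reverse peak in 18 libraries, AI5_BETA was at the floor in 5 libraries, the last COX1 exon in 3 and the last COB exon in 8, and the means below include them. Over these 10, input stood at 9.40 times the genome-wide level in S96-I775E cells in 4NQO and 7.70 in YPD. It stood at 8.49 in YJM789 cells in 4NQO and 5.72 in YPD, and at 7.22 in S96 cells in 4NQO and 6.14 in YPD, each from 1 input library. ChIP stood at 3.38 ± 0.291 in S96-I775E cells in 4NQO and 2.44 ± 0.0657 in YPD, at 2.70 ± 0.369 in YJM789 cells in 4NQO and 1.63 ± 0.153 in YPD, and at 2.96 ± 0.445 in S96 cells in 4NQO and 2.19 ± 0.342 in YPD. The ChIP level was higher in 4NQO within alleles by 0.921 (exact permutation test within alleles, two-sided, p = 0.0005, adjusted p = 0.004 over 8 tests), in 3 of 3 alleles. It was higher in S96-I775E than in YJM789 cells by 0.749 (exact p = 0.01, adjusted p = 0.04, in both media), although the adjusted p was 0.06 without YJM789 4NQO replicate 1 or 2 or S96-I775E 4NQO replicate 1 or 3. S96-I775E and YJM789 did not pass against S96 (0.337 and -0.412, adjusted p of 0.109 and 0.096 by the exact test).

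As a ratio, the deficit had another order of groups than as a difference. The mean fold of input over ChIP at the same 10 regions was 3.11 ± 0.313 in S96-I775E cells in 4NQO and 3.58 ± 0.0956 in YPD. It was 3.71 ± 0.575 in YJM789 cells in 4NQO and 3.87 ± 0.330 in YPD, and 2.83 ± 0.560 in S96 cells in 4NQO and 3.09 ± 0.548 in YPD. The log2 fold differed between 4NQO and YPD within alleles by -0.15 (exact permutation test within alleles, two-sided, p = 0.091, adjusted p = 0.109 over 8 tests), negative in 3 of 3 alleles. For YJM789 against S96 it was 0.36 (exact p = 0.03, adjusted p = 0.07), with 10 of 10 regions higher in both media. Without S96 YPD replicate 1 its adjusted p was 0.04 by the exact test. For S96-I775E against S96 it was 0.17 (exact p = 0.15), and for S96-I775E against YJM789 -0.19 (exact p = 0.035, adjusted p = 0.07). None of the 4 passed after adjustment with all libraries. The larger input excess in 4NQO and with S96-I775E is therefore a statement about read differences, and no difference in the ratio of input to ChIP passed its test.

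**Figure D4:**
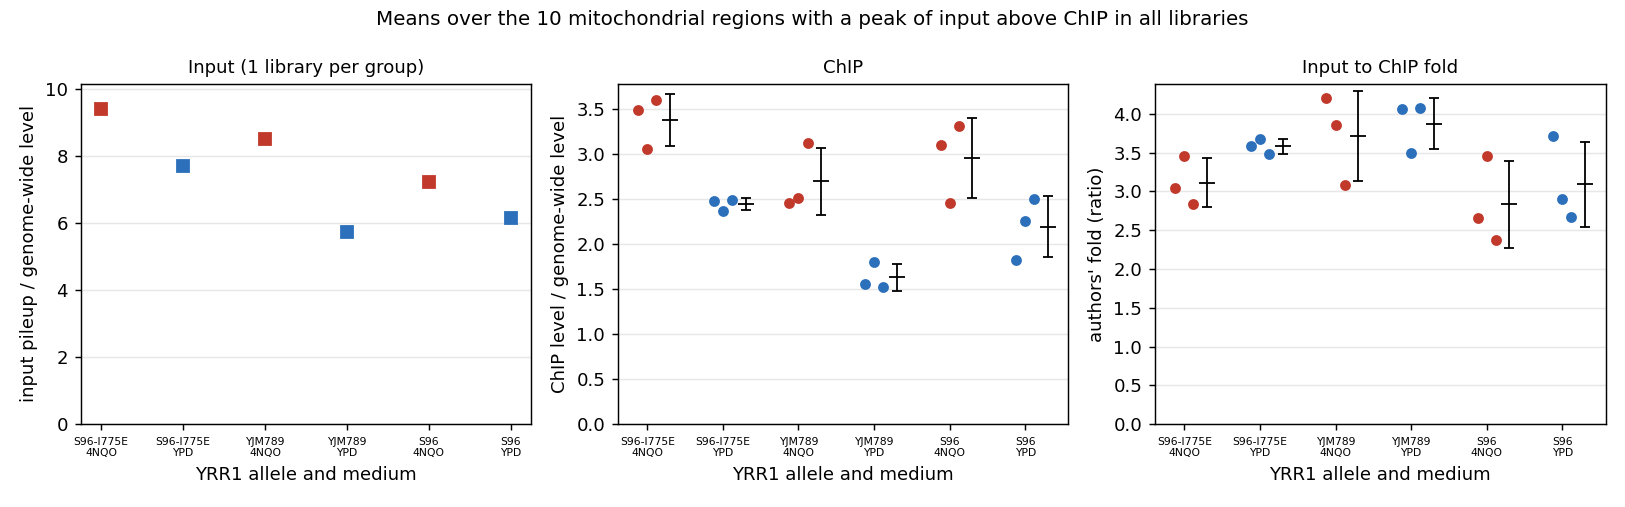
Means over the 10 mitochondrial regions with a peak of input above ChIP in all libraries: input pileup over the genome-wide level (left, 1 input library per group), ChIP level over the genome-wide level (middle) and the authors' fold of input over ChIP (right). Points are libraries with mean and SD in black, red 4NQO and blue YPD; input and ChIP both lie higher in 4NQO and the mean folds lie lower in 4NQO.

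Single regions split along the same lines. Among the 10 regions with a peak in all libraries, COX3 had the highest range of ChIP levels, 3.05 to 6.02 times the genome-wide level. Its range of input was also the highest, 7.03 to 9.92 times, and that of its highest fold per library the lowest, 1.47 to 2.48. Not every group had this order. In S96-I775E cells in YPD, COX1 exons 1 to 6 had a mean ChIP level of 4.12, against 3.66 at COX3. Input there was 8.40 against 8.31, and the fold at the point of highest input 2.04 against 2.26. In S96 cells in YPD, input was 7.76 at COX1 exons 1 to 6 and 7.71 at COX3. In COB with BI3 the ChIP level was 3.45 ± 0.516 in S96-I775E cells in 4NQO and 2.15 ± 0.33 in YPD, 2.69 ± 0.699 in YJM789 cells in 4NQO and 1.22 ± 0.14 in YPD, and 2.67 ± 0.584 in S96 cells in 4NQO and 1.89 ± 0.428 in YPD. At OLI1 and the intergenic regions near OLI1, COB, VAR1 and tW(UCA)Q, ChIP stood at or below the genome-wide level in every library with a peak. At the region near ATP6 and at 15S_RRNA it did so in 14 of 15 libraries, and reached 1.05 and 1.17 times that level in the other. In 7 of the 10 regions with a peak throughout, the ChIP level so read stood above the genome-wide level in 18 of 18 libraries. It lay below input by definition, since the level was read only at peaks called for input above ChIP.

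The positive table offers a second measure, the rise of ChIP minus input at a region's strongest point above the surroundings, on which the nuclear sites are usually read. Of 324 mitochondrial entries 138 (42.6%) had no such point, against 6.95% of nuclear entries. Of the 186 with one, 136 (73.1%) were at or below 0, and 118 (63.4%) lay within 10 bp of a region end; the nuclear shares were 5.30% and 11.4%. The median strongest point was -4.70 reads, against 31.6 reads at nuclear regions. Only 17 entries were above 10 reads, and 12 of these were in replicate 3 of S96 in YPD, with the highest at 51.2 reads in 15S_RRNA. A mitochondrial rise thus mostly measured how far the surroundings lay below a point where ChIP did not exceed input. The mean of the surroundings over 8 regions was -226.8 ± 10.7 reads in S96-I775E cells in 4NQO and -183.9 ± 2.05 in YPD, -182.6 ± 10.1 in YJM789 cells in 4NQO and -111.7 ± 6.29 in YPD, and -112.9 ± 10.4 in S96 cells in 4NQO and -73.1 ± 14.2 in YPD. It fell by 51.2 reads in 4NQO within alleles (exact permutation p = 0.00025, the smallest possible).

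Read as rises these values would rank with the nuclear sites. COX1 exons 1 to 6 had a rise of 327, 348 and 309 reads in 4NQO, against 264, 269 and 264 reads in YPD, with the S96-I775E allele. With the YJM789 allele the values were 284, 285 and 259 reads in 4NQO, against 159, 132 and 150.4 reads in YPD. The S96 allele gave 188, 205 and 196 reads in 4NQO, against 137, 117 and 151 reads in YPD. The nuclear SNQ2 promoter had rises of 225, 218 and 235 reads in S96-I775E cells in 4NQO, against 183, 150.2 and 165 reads in YPD. COB with BI3, COX2 and the SCEI stretch had mean rises of 295.8 ± 10.3, 271 ± 5.35 and 241.1 ± 13.7 reads in S96-I775E cells in 4NQO, and of 94.3 ± 5.43, 120.5 ± 12.8 and 96 ± 6 reads in S96 cells in YPD. Of the 18 regions 8 had enough values to be tested, and limma on log2(rise + 1) called 8 of 8 higher in S96-I775E than in S96 cells in 4NQO (1.26% of 1350 regions tested) and 8 of 8 in YPD (1.85%). For YJM789 against S96 it called 7 of 8 in 4NQO (3.04%) and 3 of 8 in YPD (0.519%), and for S96-I775E against YJM789 2 of 8 in 4NQO (0.667%) and 5 of 8 in YPD (1.48%). In 4NQO against YPD it called 3 of 8 in S96-I775E (1.93%), 7 of 8 in YJM789 (6.15%) and 5 of 8 in S96 cells (1.41%). No mitochondrial rise was called lower in these 9 comparisons, at limma's adjusted threshold or at an unadjusted p of 0.05. With empty values taken as 0, which brings in all 18 regions, 5 were lower for YJM789 against S96 in YPD (2 higher). For S96-I775E against S96 in YPD 5 were lower (8 higher), and for 4NQO against YPD in S96 cells 3 (5 higher). Over all 1711 regions these fits called 39 lower and 53 higher, 68 and 94, and 38 and 102. The region near ATP6 had a strongest point in S96 cells in YPD only, so a lower call can reflect empty entries. With 1 library left out, the 2 calls of S96-I775E against YJM789 in 4NQO became 1 without YJM789 4NQO replicate 3 and 0 without any of the other 5 libraries. The 3 calls of 4NQO against YPD in S96-I775E cells became 2 without 4NQO replicate 3 and 0 without any of the other 5. Of all regions 0.593% in 4NQO and 4.96% in YPD were called lower for S96-I775E against S96, 0.37% and 1.56% for YJM789 against S96, and 3.19% and 0.667% for S96-I775E against YJM789. In 4NQO against YPD 0.667% were lower in S96-I775E and in YJM789 cells and 1.19% in S96 cells. Among the interactions 1 of 8 was called, the intergenic region near COB for YJM789 minus S96 (1.17 ± 0.323 on the log2 scale, limma adjusted p = 0.0397), where 3.56% of all regions were called higher and 0.37% lower. This count was 0 in the m2 set, with library medians set equal and with only the compared groups fitted. It was also 0 without any 1 YJM789 library in YPD, without YJM789 4NQO replicate 1 or 2 or without S96 4NQO replicate 1 or 3. It was 3 without YJM789 4NQO replicate 3, and 2 without S96 replicate 2 of either medium. The interaction of S96-I775E minus S96 had 0 calls by limma, with 0 higher and 3 lower at an unadjusted p of 0.05, where 1.93% of all regions were called higher and 0.667% lower. That interaction had 0 higher and 3 lower with library medians set equal, where 6 of 1350 regions were called higher and 14 lower. With the same scaling, 0 of 8 was called in 4NQO against YPD in S96-I775E cells (15 higher and 9 lower over all regions). The other 10 regions had too few strongest points to be tested.

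The other multicopy DNA of the cell was set beside the mitochondrial genome. The 2-micron plasmid, a nuclear circular element, had an input excess of 225.3 ± 19.0 reads in S96-I775E cells in 4NQO and 152 ± 12.8 in YPD. It had 200.6 ± 20.7 reads in YJM789 cells in 4NQO and 69.4 ± 6.67 in YPD, and 136.5 ± 42.1 reads in S96 cells in 4NQO and 109 ± 7.73 in YPD. It was higher in 4NQO in all 3 alleles (limma adjusted p = 1.0e-05 in S96-I775E, 3.4e-13 in YJM789 and 0.0259 in S96 cells). The ribosomal DNA region of chromosome XII had 171.3 ± 24.6 reads in S96-I775E cells in 4NQO and 107.1 ± 2.78 in YPD, 170 ± 14.8 in YJM789 cells in 4NQO and 67.6 ± 11.2 in YPD, and 60 ± 40.1 in S96 cells in 4NQO and 66.3 ± 1.90 in YPD. Its medium difference passed in S96-I775E and YJM789 cells and not in S96 cells (-6.27 ± 10.2 reads, limma adjusted p = 0.598). The part of DNA copy number in these differences was not tested. In bulk cultures, more copies in every cell and more cells with many copies cannot be told apart.

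**Figure D5:**
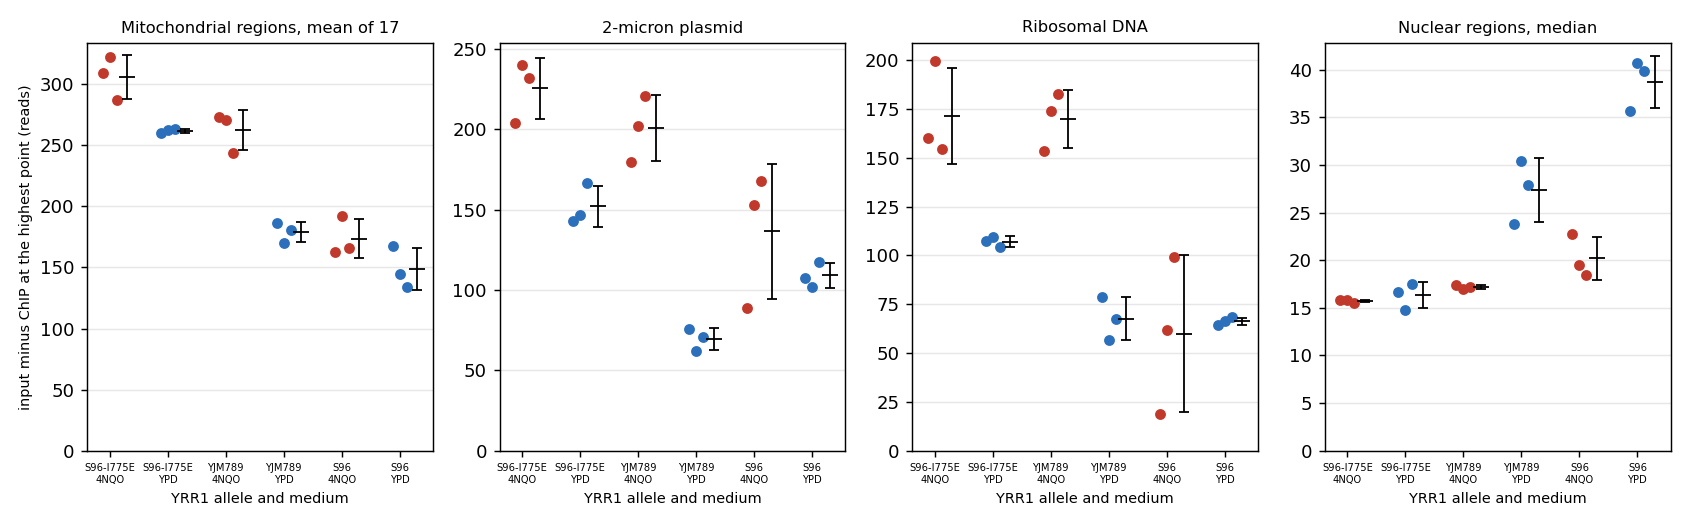
Input excess in reads for the mean of 17 mitochondrial regions, the 2-micron plasmid, the ribosomal DNA region and the median of the nuclear regions, each on its own axis from 0; points are ChIP libraries with mean and SD in black, red 4NQO and blue YPD. The first 3 panels lie highest in S96-I775E or YJM789 cells in 4NQO, and the nuclear median lies highest in S96 cells in YPD.

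The letters of the regions were searched on both strands for short motifs. The Yrr1 core CGCGGA was in 0 of 18 mitochondrial regions and in 10.5% of the 1692 nuclear regions. It did occur elsewhere in the mitochondrial genome, at 0.0699 times per kb of the whole, against 0.197 times per kb in the nuclear regions. The zinc cluster half-site CGG occurred 5.18 times per kb in the mitochondrial regions, 11.3 in the whole mitochondrial genome and 14.4 in the nuclear regions. By region its count ran from 1 at OLI1 and near ATP6 to 30 at COX1 exons 1 to 6, the longest region. The short regions near tW(UCA)Q and near VAR1 at 53524 held 21 each. CGGA, which contains CGG, was in 13 of 18 mitochondrial regions and in 86.1% of nuclear ones. CCGCGG, the type of site bound by Pdr1 and Pdr3, also contains CGG and can overlap CGCGGA, and was in 3 of 18 mitochondrial regions and in 4.43% of nuclear ones. TATAAGT, the inner letters of the mitochondrial promoter motif, was in 11 of 18 regions and in 8.98% of nuclear ones; the mitochondrial regions are longer and more AT-rich, so these shares do not compare like with like. A match is a description of the letters and not a binding site.

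Nuclear genes of mitochondrial DNA maintenance and transcription were read from a list of 28, all of which were matched. A region overlapped the gene or its 500 bp upstream for 10 of 28, in 13 regions, of which 11 could be tested for the rise. RPO41, MTF1 and ABF2, the polymerase, its specificity factor and the packaging protein, had none. MIP1, the mitochondrial DNA polymerase, had a region with a ChIP peak in 0 libraries and no call for the rise. The most ChIP peaks were at ILV5, an amino acid biosynthesis enzyme that also holds nucleoids together, with 5 of 18 libraries. The rise passed in at least 1 of 9 comparisons at 2 of the 11 regions tested. POL5 was higher in YJM789 cells in 4NQO against S96 and against YPD, and a region at NTG1, a DNA glycosylase of nucleus and mitochondria, was higher in YJM789 against S96 in 4NQO. The background of those comparisons was 3.04% and 6.15% of regions called higher. The POL5 region had a ChIP peak in 1 of 18 libraries and the called NTG1 region in 0.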

How the data were processed

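ChIP and input libraries were compared by the authors before deposit; build sacCer3 and the tools Bowtie2 2.2.3, CASAVA 1.7 and MACS2 2.1.0 are listed, without roles, in the submitters' processing notes. The deposited MACS2 lists hold, per the file headers, a pileup signal, a fold (ratio) and a −log10 q-value per peak and library, under sets named mn and m2 that no source explains. The deposited CisGenome list gives a false discovery rate (a q-value) per peak and was used for its positions. The deposited region tables give, per region and library, scores of ChIP minus input (reversed in the negative table) and a rise signal. Coordinates fitted RefSeq R64. The mn set was used. The tables hold 15 further value columns that were not used.

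Regions that had 2 or more values in every group were fitted with limma 3.58.1 in R 4.3.3 (all 18 ChIP libraries, 6 groups, empirical Bayes with trend, Benjamini-Hochberg over all regions, threshold 0.05), on log2(rise + 1) and, chosen after seeing the data, on the input excess in reads. Values per library were compared by exact two-sided permutation within alleles or media, and the scripts were tested on simulated data. Fold and ChIP level were added after seeing the data. Depth is unknown, so no counting interval is given. Members, lists and tests were chosen with earlier results of these data known. Full values are given for the regions of COX1, COX2, COB, BI3 and 21S_RRNA and for those past the rise threshold in at least 3 of 9 comparisons (at most 10), and OLI1 was singled out after its values were seen. Alternatives tried were the m2 set, other scaling, pseudocount 10, no filter, empty values as 0, a replicate block, only the compared groups and each library left out. The sequence of 1 intergenic region is not reported here.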

Additional observations from a re-analysis of the deposited data

Results flagged for a closer look

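The response to 4NQO differed between alleles in the interaction tests of limma. For the input excess, YJM789 minus S96 passed at 11 of 18 mitochondrial regions, between 36.8 and 141.8 reads, where 15% of all regions were called higher and 6.25% lower. S96-I775E minus S96 passed at 7, of which 6 were higher, the most at COB with BI3 (84.4 reads), and 1 lower, the intergenic region near ATP6 (-51.2 reads). Of all regions 40.9% were called higher and 6.4% lower there, so 6 of 18 is a smaller share than that of all regions. For the rise, YJM789 minus S96 passed at 1 region, the intergenic one near COB, where 3.56% of all regions were called higher, and at 0 to 3 with 1 library left out. With library medians set equal the counts were 8 higher and 0 lower for YJM789 minus S96 and 1 higher and 4 lower for S96-I775E minus S96 in the input excess. For the rise they were 0 higher and 0 lower for YJM789 minus S96, and 0 higher and 3 lower for S96-I775E minus S96. Over all regions those rise fits gave 4 higher and 5 lower, and 6 and 14. The shares given before are those of the unscaled fits. All these counts rest on 1 input library per group, and the part of that input in them was not tested.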

How the results depend on the processing

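No permutation-tested difference changed direction under its alternatives. For the S96-I775E interaction, the median input excess difference of 17.5 reads became -0.417 with library medians set equal, where 1 higher and 4 lower calls replaced 6 and 1. Its median rise difference of -0.19 became 0.05 with empty values taken as 0. For the rise, counting calls among mitochondrial regions, empty values taken as 0, with 18 regions tested, gave 7 (YJM789 against S96 in YPD, 2 higher and 5 lower), 13 (S96-I775E against S96 in YPD, 8 and 5), 1 (S96-I775E against YJM789 in 4NQO), 8 and 0 (4NQO against YPD in S96 cells, 5 higher and 3 lower, and in S96-I775E cells), and 3 and 1, all higher, for the interactions of YJM789 and of S96-I775E with S96. Over all 1711 regions those fits gave 53 higher and 39 lower, 94 and 68, 2 and 11, 102 and 38, and 1 and 0. The interactions had 50 and 35, and 19 and 44, all in the order named. Library medians set equal gave 4 (YJM789 against S96 in 4NQO), 8 and 5 (S96-I775E against YJM789 in YPD and 4NQO) and 0 (4NQO in S96-I775E cells). For those interactions it gave 0 and 3, all lower. Over all 1350 regions this scaling gave 17 higher and 9 lower, 34 and 5, 22 and 20, and 15 and 9. The interactions had 4 and 5, and 6 and 14, in the order named. Fitting only the compared groups gave 0 and 4 (YJM789 against S96 in YPD and 4NQO), 9 and 0 (S96-I775E against YJM789 in YPD and 4NQO), 2 (4NQO in S96 cells) and 0 (YJM789 interaction). The m2 set gave 1 (YJM789 against S96 in YPD), 1 (S96-I775E against YJM789 in 4NQO) and 0 (YJM789 interaction), and no filter gave 1 (S96-I775E against YJM789 in 4NQO). Leaving out 1 library gave 1 to 3 (YJM789 against S96 in YPD), 0 to 1 (S96-I775E against YJM789 in 4NQO), 0 to 2 (4NQO in S96-I775E cells) and 0 to 3 (YJM789 interaction).

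For the input excess, calls among mitochondrial regions were counted with higher and lower together. The shares over all regions are not given for these fits. With log2(fall + 1) in its place there were 6 (YJM789 against S96 in 4NQO), 10 and 10 (S96-I775E against S96 in YPD and 4NQO), and 6 and 3 (S96-I775E against YJM789 in YPD and 4NQO). For 4NQO there were 8 and 2 in YJM789 and S96-I775E cells. The interactions of YJM789 and S96-I775E had 5 and 4, the 4 as 1 higher and 3 lower. The m2 set gave 14 (S96-I775E against YJM789 in 4NQO). Leaving out 1 library gave 5 to 9 there and 3 to 8 for the S96-I775E interaction. The mean fall over 17 regions, 28.9 reads higher in 4NQO, was 21.5 as a median (exact permutation adjusted p = 0.0552). For YJM789 against S96 it was 24.6 reads, and 12.7 in the m2 set (adjusted p = 0.21), 14.4 as a median (0.35) and 20.9 to 28.4 with 1 library left out. For S96-I775E against YJM789 the median was 17.9 (0.0709). The ChIP level of S96-I775E against YJM789 ranged over 0.689 to 0.856, and the fold of YJM789 against S96 over 0.304 to 0.429 on the log2 scale, with 1 library left out. The cause was not tested.

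The samples share only a replicate number, since same-numbered libraries did not deviate together. With that number as a replicate block the fall of YJM789 against S96 stayed at 24.6 reads (exact test, adjusted p = 0.0625). The ChIP level of S96-I775E against YJM789 stayed at 0.749 (exact test, adjusted p = 0.07). The 4NQO input excess calls with that block, higher and lower together, were 10, 18 and 12 in S96-I775E, YJM789 and S96 cells. The share over all regions is not given for those calls. Depth is unknown, inputs are unreplicated and the ChIP level is implied from pileup and fold.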
